A study of Mus musculus with 3 samples.

Results

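Basophils and their precursors were picked from single-cell RNA sequencing of mouse bone marrow by the transcripts of their proteases. A cell was taken when it held at least 4 UMIs (unique molecular identifiers, 1 per counted transcript) of Mcpt8 plus Prss34, no UMI of Cd79a and under 5% of its UMIs from S100a8 plus S100a9. Cd79a marks B lineage cells, and S100a8 and S100a9 mark neutrophils. Cells were first kept if they held 500 or more UMIs from 300 or more genes and if mitochondrial genes gave no more than 10% of these. Of the 71014 kept cells, 755 met the rule. They were 238 of 22506 cells in the MI-E library, 293 of 23455 in the MI library and 224 of 25053 in the Sham library. The rule reads measured values, so the levels of its 5 genes are given as a description.

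The study compared marrow of femur and tibia from C57BL/6J mice after myocardial infarction with marrow after a sham operation, with 1 library for each of 3 groups. The MI-E mice had an infarction and EMPA, an agent the labels give only in this short form. The MI mice had an infarction, made by tying off the left anterior descending coronary artery, and their labels name no EMPA. The Sham mice are labelled as sham-operated, and what their operation left out is not stated. All 3 samples went over a Ficoll density gradient, which keeps light mononuclear cells and removes dense ones. Age, time after the operation and the number of mice behind each library are not given in the sources used here. With 1 library a group there was no replicate spread and no test. All intervals below are exact 95% intervals that cover counting error only, not differences between mice.

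Basophils are the rarest granulocytes of blood. They arise in marrow from granulocyte-monocyte progenitors, depend on the transcription factors GATA2 and C/EBPα, expand under interleukin 3, and keep the high-affinity IgE receptor on their surface. When the receptor is crosslinked they release stored histamine and proteases and make chemokines, leukotrienes and interleukin 4. Mast cells share much of this outfit, but they use tryptases and other chymases and stay in tissue.

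The promoters of the 5 marker genes are shown because transcripts of these genes identified the cells. Mcpt8 and Prss34 encode basophil serine proteases, Cpa3 encodes carboxypeptidase A3 of the granules, and Fcer1a and Ms4a2 encode the alpha and beta chains of the IgE receptor. Each window runs from 250 bases before to 50 bases after the RefSeq start site on GRCm38.p6, the assembly behind mm10, and is written 5′ to 3′ on the gene's strand. Capitals mark the GATA motif, searched on both strands as AGATAA, then as AGATAG, then as TGATAA and then as TGATAG. A match on the other strand reads TTATCT.
Mcpt8, chr14:56085148-56085447, minus strand: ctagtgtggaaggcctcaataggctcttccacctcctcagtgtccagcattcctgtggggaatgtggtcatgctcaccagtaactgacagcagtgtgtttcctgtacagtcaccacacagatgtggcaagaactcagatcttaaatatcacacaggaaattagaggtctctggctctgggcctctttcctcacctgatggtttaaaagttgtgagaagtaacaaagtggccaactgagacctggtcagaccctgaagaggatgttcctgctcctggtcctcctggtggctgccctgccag
Prss34, chr17:25298144-25298443, plus strand: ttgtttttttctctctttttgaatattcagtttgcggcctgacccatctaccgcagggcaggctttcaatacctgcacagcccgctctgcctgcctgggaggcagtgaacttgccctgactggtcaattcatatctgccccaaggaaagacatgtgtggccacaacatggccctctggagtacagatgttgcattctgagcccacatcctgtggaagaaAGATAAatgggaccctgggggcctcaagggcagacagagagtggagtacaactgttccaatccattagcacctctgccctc
Cpa3, chr3:20242132-20242431, minus strand: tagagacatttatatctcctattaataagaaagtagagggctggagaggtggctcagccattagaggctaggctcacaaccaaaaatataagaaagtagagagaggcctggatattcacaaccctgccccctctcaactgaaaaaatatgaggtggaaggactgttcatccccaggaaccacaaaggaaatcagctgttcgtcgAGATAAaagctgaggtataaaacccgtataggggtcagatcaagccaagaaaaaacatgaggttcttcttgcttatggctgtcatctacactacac
Ms4a2, chr19:11623670-11623969, minus strand: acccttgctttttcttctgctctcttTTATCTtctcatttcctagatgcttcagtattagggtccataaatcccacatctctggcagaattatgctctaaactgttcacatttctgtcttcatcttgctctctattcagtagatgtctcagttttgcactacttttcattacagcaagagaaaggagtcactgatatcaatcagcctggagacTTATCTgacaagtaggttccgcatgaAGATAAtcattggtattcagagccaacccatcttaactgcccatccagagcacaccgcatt
Fcer1a, chr1:173227180-173227479, minus strand: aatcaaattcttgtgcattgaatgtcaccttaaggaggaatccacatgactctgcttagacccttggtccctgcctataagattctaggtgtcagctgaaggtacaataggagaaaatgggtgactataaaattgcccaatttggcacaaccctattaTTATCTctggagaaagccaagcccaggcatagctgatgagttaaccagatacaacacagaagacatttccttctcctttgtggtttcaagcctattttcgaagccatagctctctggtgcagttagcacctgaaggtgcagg
Ms4a2 held 3 matches, Prss34, Cpa3 and Fcer1a held 1 each, and Mcpt8 held 0. The match of Prss34 began 31 bases before the start site and that of Cpa3 46 bases before it. Ms4a2 had its matches 224, 37 and 11 bases before the start, and Fcer1a 92 bases before it. At least 1 match was found in 9778 of all 32851 RefSeq promoter windows, or 29.8%, and 7.77% held at least 2. A match describes letters in the window and no binding.

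Most of the cells carried the other basophil genes. At least 1 UMI of Cpa3, Ms4a2 or Fcer1a was found in 232 of 238 cells of MI-E, 281 of 293 of MI and 219 of 224 of Sham. Cpa3 was detected in 93.3% of the cells in MI-E, 89.4% in MI and 93.3% in Sham. Gata2, the transcription factor of early blood and of basophils, was detected in 94.5%, 94.5% and 98.2% in the same order. Among Cd79a-bearing B lineage cells, which should lack these genes, Cpa3 was seen in 1.2%, 1.35% and 1.25%, and Gata2 in 1.54%, 2.05% and 1.52%. Those cells were shallower, with medians of 1281, 1260 and 1638 UMIs, against 3354, 3151 and 4452 UMIs in the basophil cells. Cd200r3, an activating receptor of basophils and mast cells, was detected in 71.4% of the cells of MI-E, 76.5% of MI and 81.7% of Sham, against under 1% of the B lineage cells.

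Defining markers of mast cells were nearly absent. Of 11 mast cell markers, 8 had no UMI in the MI-E and the MI cells, among them Cma1, Tpsb2, Tpsab1 and Mcpt4. In Sham 5 of the 11 had none, and all 48 UMIs of Cma1, mast cell chymase, came from 1 cell. The mast markers that were detected throughout are Cpa3, Gata2 and Kit, which basophils or their progenitors also carry. Eosinophil markers summed to 969 CPM (UMIs of a gene per 1000000 UMIs of the cells) in MI-E, 280 CPM in MI and 264 CPM in Sham. In MI-E, 580 of the 959 UMIs of Prg2, eosinophil major basic protein, came from 1 cell, so most of its level of 677 CPM came from that cell. Neutrophil markers were all detected and summed to 7308, 5807 and 2263 CPM in MI-E, MI and Sham, beside 115484, 154107 and 72511 CPM in the other cells of each library. This list includes S100a8 and S100a9, which the rule caps in the selected cells. Its low sum beside the other cells was thus partly set by the rule. Over the other 10 markers, median log2 ratios to Sham were 1.65 for MI-E and 1.59 for MI, beside 1.07 and 1.26 in the rest. Erythroid markers summed to 3487, 2902 and 25199 CPM, beside 7290, 9019 and 31529 CPM in the other cells. Both lists thus ran higher or lower in the basophil cells in the same direction between an infarct library and Sham as in the rest of the marrow, and their part in the results was not tested.

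A few very deep cells went against the label and carried much of the summed signal in the infarct libraries. Cells above 10000 UMIs were 31 of 238 in MI-E, 27 of 293 in MI and 20 of 224 in Sham, and they held 49.4%, 42.5% and 24.3% of all member UMIs. Of these, 15 cells in MI-E and 16 in MI had only 4 to 7 UMIs of Mcpt8 plus Prss34, against 1 cell in Sham. These 15 and 16 cells held 28.6% and 26.3% of the UMIs. In them Mpo, the myeloperoxidase of primary granules, stood at 4177 CPM in MI-E and 5152 CPM in MI, while Cpa3 stood at 108.5 and 57.38 CPM and Ms4a2 at 49.3 and 7.17 CPM. Only 9 of 15 and 9 of 16 held any UMI of Cpa3, Ms4a2 or Fcer1a. Of all cells above 10000 UMIs, a doublet caller marked 17 in MI-E, 10 in MI and 10 in Sham, and of the 15 and 16 cells it marked 5 in MI-E and 3 in MI. These 15 and 16 cells were bounded by cuts on depth and marker count. Primary granule markers summed to 14853 CPM in them in MI-E and 22451 CPM in MI. Above 10000 UMIs but with 8 or more of Mcpt8 plus Prss34, 16 cells of MI-E and 11 of MI summed to 13596 and 10449 CPM. The caller marked 12 and 7 of those as doublets. For many genes levels are therefore given both as sums over all cells of a library and as means in which each cell weighs the same. Levels with no weighting named are sums. Many list medians are also given without the cells above 10000 UMIs.

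**Figure D1:**
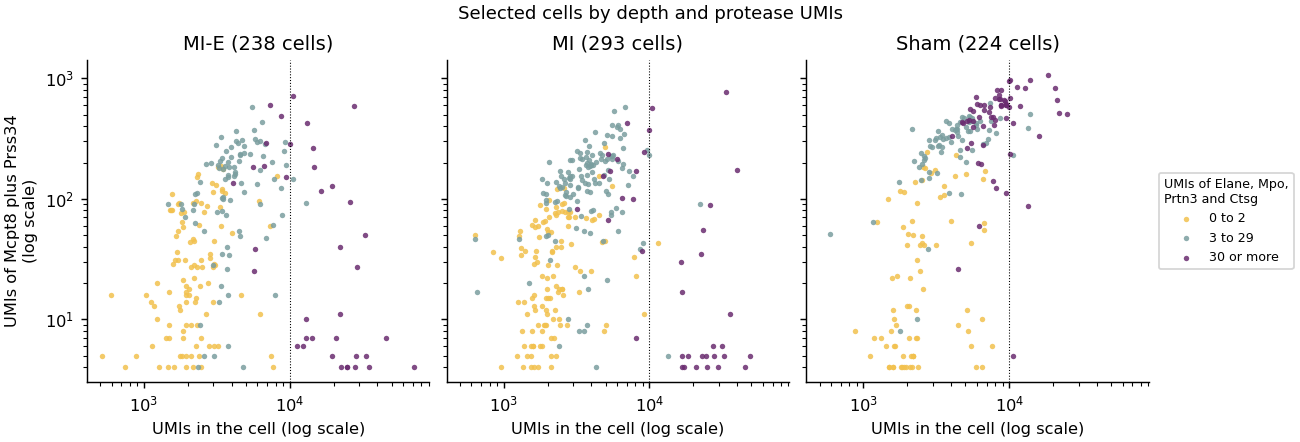
Each point is 1 selected cell, with its total UMIs against its UMIs of Mcpt8 plus Prss34 on log axes, in panels for MI-E, MI and Sham; colour gives its UMIs of Elane, Mpo, Prtn3 and Ctsg, and the dotted line marks 10000 UMIs. Right of the line, 15 cells of MI-E, 16 of MI and 1 of Sham have 4 to 7 selection UMIs.

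The share of basophil cells among all kept cells was higher in MI than in Sham. It was 1.06% (0.928% to 1.2%) of all kept cells in MI-E, 1.25% (1.11% to 1.4%) in MI and 0.894% (0.781% to 1.02%) in Sham. The MI share was 1.4 times the Sham share (1.17 to 1.67). The size of this gap depended on the rule too. With cells thinned to 1000 UMIs the shares were 1.2% in MI (1.06% to 1.36%) and 0.989% in Sham (0.866% to 1.12%). With a stricter cell filter they were 1.62% and 1.34%, and without the Cd79a and S100 conditions 1.59% and 1.29%. With at least 2 UMIs they were 1.88% and 1.13%, and without cells above 10000 UMIs 1.32% and 0.879%. The MI-E share was 1.18 times the Sham share (0.981 to 1.43) and 0.847 times the MI share (0.71 to 1.01), so with this rule both differences were within counting error. The gap between MI-E and MI depended on the rule. With at least 2 UMIs of Mcpt8 plus Prss34 the MI-E share was 0.778 times the MI share (0.673 to 0.899), and with at least 10 it was 0.809 times (0.664 to 0.983). It was 0.775 times (0.64 to 0.936) without marked doublets, 0.793 times (0.658 to 0.955) without cells above 10000 UMIs, and 0.925 times (0.771 to 1.11) with a stricter cell filter. The order MI, MI-E, Sham held when cells above 10000 UMIs were left out. All such shares depend on what else was in the tube. Among cells under 5% S100a8 plus S100a9 the shares were 1.54%, 2.14% and 1.06% in MI-E, MI and Sham. With that denominator the MI-E share was 0.721 times the MI share (0.605 to 0.859), and the MI share 2.01 times the Sham share (1.69 to 2.41). The rule also bars B lineage cells, and these stayed in both denominators. Cells with at least 2 UMIs of Cd79a were 5520 of 22506 kept cells in MI-E, 4294 of 23455 in MI and 12604 of 25053 in Sham. Leaving them out would raise the Sham share most, so the order of the libraries holds only for the denominators given. A gain of basophils and a loss of other light cells cannot be told apart in shares.

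**Figure D2:**
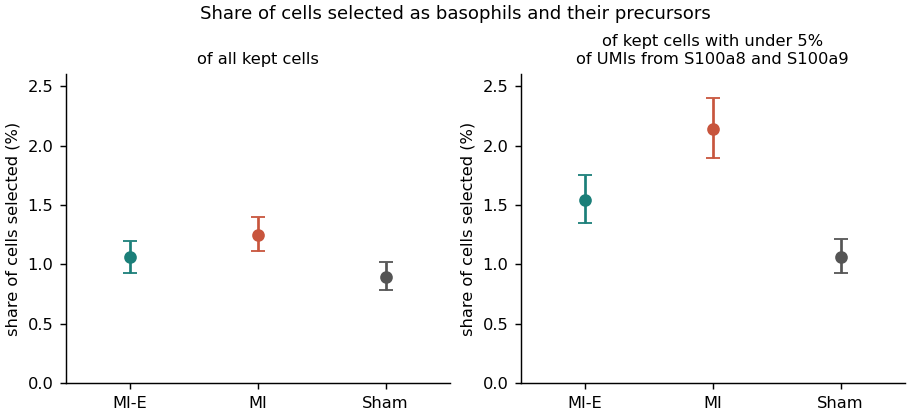
The percentage of cells that met the rule in MI-E, MI and Sham, of all kept cells and of kept cells under 5% S100a8 plus S100a9, with exact 95% intervals for counting error. MI is highest with both denominators, at 1.25% and 2.14%.

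Cells close to the threshold differed between the libraries. At 3 UMIs of Mcpt8 plus Prss34, just outside the rule, 27 cells of MI-E, 35 of MI and 15 of Sham were found, and 16, 24 and 13 of them held another marker. At 4 UMIs, just inside it, 16, 13 and 13 cells were found, and 12, 9 and 11 held another marker. At 4 UMIs the summed level of Cpa3 was 116 CPM in MI-E, 172.6 CPM in MI and 550.8 CPM in Sham. Mpo at 4 UMIs stood at 3548 CPM in MI-E and 5565 CPM in MI, against 91.8 CPM in Sham. These sums rested on a few deep cells, since the 6 cells above 10000 UMIs held 826 of the 826 Mpo UMIs in MI-E and the 6 in MI held 924 of 935, while Sham had no such cell at 4 UMIs. The other 10 cells of MI-E held 0 to 4 UMIs of Elane, Mpo, Prtn3 and Ctsg, the other 7 of MI 0 to 15, and the 13 of Sham 0 to 2. At 5 UMIs, Mpo stood at 4263 CPM in MI-E, 4237 CPM in MI and 3239 CPM in Sham. The Sham level there rested mainly on 1 cell above 10000 UMIs, with Mpo at 6614 CPM. That cell held 105 UMIs of Elane, Mpo, Prtn3 and Ctsg, and the other Sham cells at 5 UMIs held 0 to 2. The beta globin gene Hbb-bs stood at 60.13 CPM in the cells at 4 UMIs of MI-E and 83.32 CPM in MI, against 57531 CPM in Sham, where 1 cell held 1168 of its 1880 UMIs.

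Sham cells were the richest in Mcpt8 and Prss34. The median cell held 59 UMIs of both genes together in MI-E, 68 in MI and 242 in Sham, and the highest cell held 718, 773 and 1072. At least 64 UMIs were present in 114 of 238 cells of MI-E, 152 of 293 of MI and 158 of 224 of Sham, or 47.9%, 51.9% and 70.5%. Between 16 and 63 UMIs lay 24.8% of the MI-E cells, 24.2% of the MI cells and 9.82% of the Sham cells. Weighting each cell the same, Mcpt8 stood at 7294 CPM in MI-E, 7716 CPM in MI and 18522 CPM in Sham. Prss34, weighted in the same way, followed the same order with 17267, 19277 and 31423 CPM. Depth moved with this difference, since the median cell of Sham held 4452 UMIs.

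**Figure D3:**
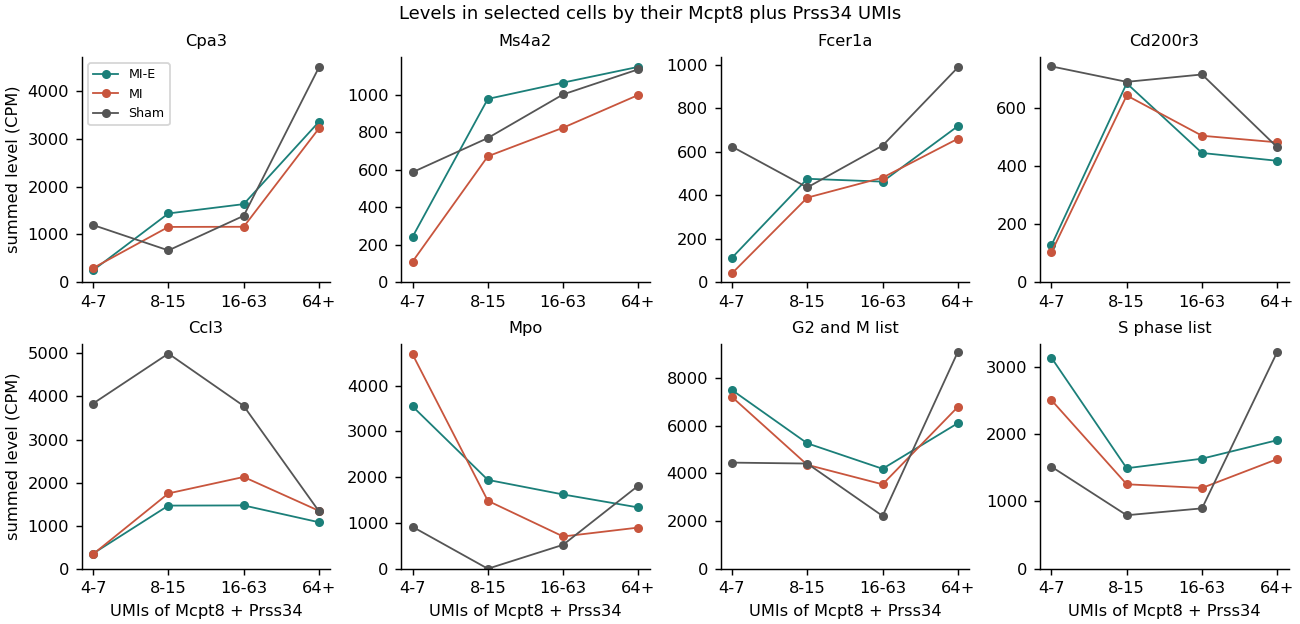
Levels by bin of Mcpt8 plus Prss34 UMIs per cell (4 to 7, 8 to 15, 16 to 63, 64 or more), for MI-E, MI and Sham. In the bin of 64 or more UMIs, the S phase genes sum to 1909, 1628 and 3222 CPM and Cpa3 to 3357, 3219 and 4497 CPM.

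Within each library the cells did not all hold the same program. From the 16 to 63 bin to the bin of 64 or more UMIs, Cpa3 stood at 1634 and 3357 CPM in MI-E, 1160 and 3219 CPM in MI and 1390 and 4497 CPM in Sham. Ccl3, the chemokine CCL3, ran the other way, with 1470 and 1079 CPM in MI-E, 2131 and 1344 CPM in MI and 3780 and 1333 CPM in Sham. Genes of G2 and M phase summed to 4187 and 6100 CPM, 3536 and 6782 CPM, and 2211 and 9091 CPM in the same bins. Cells of the richest bin thus held more Cpa3 and G2 and M transcripts and less Ccl3 than those of the bin below it in all 3 libraries. Depth differed between these bins too, and its part was not tested. Median UMIs a cell were 2499 and 3872 in MI-E, 2283 and 3810 in MI and 2482 and 5275 in Sham. Cd200r3 differed little between these bins in the infarct libraries, with 446.2 and 419.2 CPM in MI-E and 505.7 and 482.9 CPM in MI, and more in Sham, with 717.2 and 465.8 CPM.

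The contrast of Cpa3 and Ccl3 also appeared when cells were split by primary granule genes at an equal depth of 2000 UMIs. At that depth 54.3% of the cells of MI-E, 58.2% of MI and 67.5% of Sham held at least 3 UMIs of Elane, Mpo, Prtn3 and Ctsg, against 12.5%, 13.6% and 4.93% of B lineage cells. Ccl3 stood at 955 CPM in such cells and 2229 CPM in the others in MI-E, at 1256 and 2824 CPM in MI, and at 1508 and 3992 CPM in Sham. Cpa3 stood at 3248 CPM in such cells and 2394 CPM in the others in MI-E, at 3267 and 2122 CPM in MI, and at 4961 and 1758 CPM in Sham. The Cpa3 ratio between both kinds of cell was thus 1.36 in MI-E (1.2 to 1.54), 1.54 in MI (1.37 to 1.74) and 2.82 in Sham (2.44 to 3.27). Mcpt8, a gene of the rule, was 1.65, 1.54 and 3 times as high in the cells with these transcripts in MI-E, MI and Sham. Cells with fewer than 2000 UMIs, 52 in MI-E, 68 in MI and 33 in Sham, are not in these values.

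Fewer cells carried S phase transcripts in MI than in Sham. After thinning to 2000 UMIs, at least 3 UMIs of the S phase list were found in 44.6% of cells of MI-E (37.3% to 52.1%), 38.7% of MI (32.3% to 45.4%) and 59.2% of Sham (51.8% to 66.2%). The MI share was 0.654 times the Sham share (0.488 to 0.872). The MI-E share was 0.754 times the Sham share (0.561 to 1.01) and 1.15 times the MI share (0.844 to 1.58), both within counting error. B lineage cells of the same libraries, which also divide in marrow, gave 32.6%, 26.8% and 44.3%, in the same order. At each cell's own depth the shares were 55.5%, 54.9% and 64.3%, and the MI share was 0.855 times the Sham share (0.678 to 1.08), within counting error. For genes of G2 and M phase the thinned shares were 75.8%, 61.8% and 86.9%, with 60.8%, 57.9% and 64% in B lineage cells.

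Most S phase genes were lower in both infarct libraries than in Sham. Between MI and Sham, 20 of 22 measured S phase genes were lower, 6 of them at least 2-fold, where 3.02% of all 5868 measured genes were at least 2-fold lower and 43.9% lower by any amount. A gene counts as measured at a mean of at least 20 CPM and at least 30 UMIs over both libraries. The median log2 ratio of the list was -0.73, against 0.07 over all measured genes and -0.14 for the list in the other marrow cells. With each cell weighing the same it was -1.15, and without cells above 10000 UMIs it was -1.58. Between MI-E and Sham, 16 of 22 were lower, 1 of them at least 2-fold, where 2.05% of 5959 measured genes were at least 2-fold lower and 38.7% lower by any amount. That median was -0.33 in sums, -0.84 with equal weight and -1.23 without the deep cells. Between MI-E and MI, 18 of 21 S phase genes were higher and 3 lower, none of them 2-fold, where 57.8% of 6083 measured genes were higher by any amount, 42.2% lower and 0.625% at least 2-fold higher.

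Single cycle genes did not all follow 1 order. Pcna, the sliding clamp of DNA replication, stood at 178 CPM in MI-E, 110 CPM in MI and 294 CPM in Sham, and the MI level was 0.374 times the Sham level (0.31 to 0.449). Pclaf, which binds that clamp, stood at 195, 110 and 304 CPM in MI-E, MI and Sham, with MI-E at 1.76 times the MI level (1.45 to 2.14). Both genes were lowest in MI, and MI-E lay between MI and Sham. Top2a, the topoisomerase of dividing cells, stood at 407 CPM in MI-E, 295 CPM in MI and 538 CPM in Sham. Hmgb2, a chromatin protein of dividing cells, stood at 2088, 2110 and 3147 CPM, and Cks2, a partner of cyclin-dependent kinases, at 351, 428 and 466 CPM. Cdkn3, a phosphatase of the cell cycle and among the 8 leading genes lower in MI-E than in MI, stood at 21.9 CPM in MI-E, 59.7 CPM in MI and 46.6 CPM in Sham. Cks2 and Cdkn3 were lowest in MI-E. Hmgb2 was level in MI-E and MI within counting error, with MI-E at 0.99 times the MI level (0.942 to 1.04). Mki67, a marker of cycling cells, was detected in 27.3% of the MI-E cells, 22.5% of the MI cells and 45.5% of the Sham cells, at median depths of 3354, 3151 and 4452 UMIs a cell, and in 24.9%, 25.3% and 23.9% of the other kept cells. Of 40 measured genes of G2 and M phase, 26 were lower in MI and 29 in MI-E than in Sham, where 43.9% and 38.7% of all measured genes were lower, with median log2 ratios of -0.20 and -0.28, or -0.63 and -0.89 without cells above 10000 UMIs. Between MI-E and MI the same list split 20 to 20, with a median of 0.02 in CPM, -0.04 with median-of-ratios scaling and -0.26 without those cells.

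**Figure D4:**
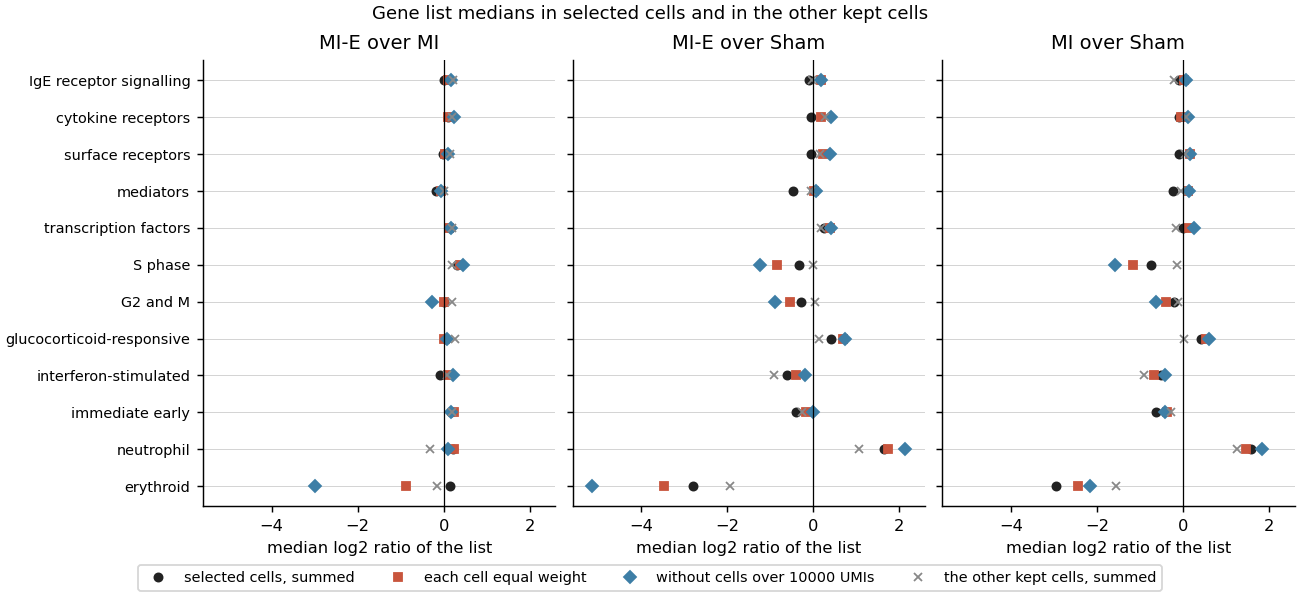
Median log2 ratio of each gene list for MI-E over MI, MI-E over Sham and MI over Sham; circles are sums over the basophil cells, squares give each cell equal weight, diamonds leave out cells over 10000 UMIs, and crosses are the other kept cells. The circles of the S phase genes lie at 0.32, -0.33 and -0.73.

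Among the IgE receptor and its signalling genes, Fcer1a was lower in both infarct libraries in sums, while the list as a whole turned with the weighting. Of 18 measured genes of this list, 11 were lower in MI and 11 in MI-E than in Sham in sums, each time with 1 gene at least 2-fold lower. Over all measured genes 43.9% were lower in MI and 38.7% in MI-E, and 3.02% and 2.05% at least 2-fold. With equal weight 7 of 18 were lower in both comparisons, with median log2 ratios of 0.17 for MI-E and 0.03 for MI over Sham, and without cells above 10000 UMIs 5 and 7 were lower. The shares over all measured genes were taken in sums only, so these last counts have none beside them. Fcer1a stood at 454 CPM in MI-E, 428 CPM in MI and 923 CPM in Sham, with MI-E at 0.492 times the Sham level (0.446 to 0.543) and MI at 0.464 times (0.421 to 0.511). With each cell weighing the same it stood at 802, 694 and 980 CPM, so the gap to Sham was narrower. Without the cells that held at least 3 UMIs of Elane, Mpo, Prtn3 and Ctsg, the log2 ratio of MI-E to Sham for Fcer1a was 0.20. That cut, made at each cell's own depth, took out 129 of 238 cells in MI-E, 170 of 293 in MI and 143 of 224 in Sham. Ms4a2 stood at 817 CPM in MI-E, 685 CPM in MI and 1077 CPM in Sham in sums, but at 1432, 1188 and 1177 CPM with equal weight. The order of MI-E and Sham for Ms4a2 turned with the weighting. Fcer1g, the shared signalling chain, stood at 1324 CPM in MI-E, 1574 CPM in MI and 2221 CPM in Sham, and at 1942, 2234 and 2490 CPM with equal weight. The kinase gene Syk stood at 108 CPM in MI-E, 97.3 CPM in MI and 76.3 CPM in Sham, and at 131, 105 and 78.8 CPM with equal weight. Lyn, a further kinase gene, stood at 86.8, 73.5 and 78.8 CPM, and at 108, 79.8 and 80.4 CPM with equal weight.

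Of the measured granule genes outside the rule, 5 of 8 were lower in MI-E and 6 of 9 in MI than in Sham in sums, where 38.7% and 43.9% of all measured genes were lower. In each comparison 2 were at least 2-fold lower, Cpa3 and the Cma1 of 1 Sham cell, and 1 was at least 2-fold higher, Prss57. Cpa3 stood at 1897 CPM in MI-E, 1861 CPM in MI and 3965 CPM in Sham, with ratios to Sham of 0.478 (0.456 to 0.502) for MI-E and 0.469 (0.448 to 0.491) for MI. With equal weight it stood at 2778, 2608 and 3593 CPM. Cpa3 was lower in both infarct libraries than in Sham within the bin of 64 or more UMIs too, and in the bin of 4 to 7 it stood at 250.1, 296.8 and 1197 CPM in MI-E, MI and Sham. That last bin includes 15 cells above 10000 UMIs in MI-E, 16 in MI and 1 in Sham. In the bin of 8 to 15 the order was the other way, with 1439, 1157 and 666.1 CPM. In the bin of 16 to 63 Cpa3 stood at 1634, 1160 and 1390 CPM. Its direction depended on the cells with primary granule transcripts. The cells that held at least 3 UMIs of Elane, Mpo, Prtn3 and Ctsg were most cells of each library. Without them the log2 ratio of Cpa3 to Sham was 0.77 for MI-E and 0.17 for MI. Srgn, serglycin, the proteoglycan that holds granule proteases, stood at 1352 CPM in MI-E, 1943 CPM in MI and 2252 CPM in Sham. Its MI-E level was 0.696 times the MI level (0.657 to 0.737), and the equal-weight levels were 1405, 2057 and 2130 CPM. Ctsg, cathepsin G, also 1 of the primary granule markers, stood at 1591, 2548 and 2611 CPM in MI-E, MI and Sham. Its MI-E level was 0.624 times the MI level (0.593 to 0.657). With equal weight Ctsg stood at 926, 1487 and 1984 CPM, and without cells above 10000 UMIs at 944, 1604 and 2432 CPM. MI was thus near Sham for Ctsg in sums only and lower than Sham in the other 2 versions. Srgn and Ctsg were thus lower in MI-E than in MI with either weighting. In the other marrow cells the same ratios were 0.857 for Srgn and 0.72 for Ctsg.

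Among cytokine receptors Il1rl1 was higher after infarction. Il1rl1 encodes ST2, the receptor for interleukin 33, an activator of basophils. It stood at 125 CPM in MI-E, 116 CPM in MI and 82.2 CPM in Sham, with MI-E at 1.52 times (1.18 to 1.97) and MI at 1.41 times (1.09 to 1.82) the Sham level. With equal weight the levels were 249, 197 and 85.7 CPM, and the ratios to Sham were 2.91 for MI-E and 2.3 for MI. It was detected in 49.6% of the cells of MI-E, 43.7% of MI and 29% of Sham, beside 1.75%, 1.72% and 1.24% of the other kept cells. In the other cells of the marrow the ratio of MI to Sham was 0.973. Il18rap, the accessory chain of the interleukin 18 receptor, stood at 475 CPM in MI-E, 550 CPM in MI and 347 CPM in Sham with equal weight, and at 243, 302 and 241 CPM in sums. Its partner Il18r1 had the opposite order, with 173, 130 and 203 CPM with equal weight and 69.15, 67.21 and 125.5 CPM in sums. Il3ra, the interleukin 3 receptor, stood at 106 CPM in MI-E, 93.6 CPM in MI and 177 CPM in Sham, with MI at 0.528 times the Sham level (0.425 to 0.655). With equal weight the Il3ra levels were 146.6, 143.8 and 207.7 CPM, and that ratio was 0.692. Of the receptor list, 7 of 17 measured genes were higher in MI than in Sham, none of them 2-fold, where 4.02% of all measured genes were at least 2-fold higher and 56.1% higher by any amount. Without cells above 10000 UMIs 12 of 17 were higher. In MI-E, 8 of 18 were higher than in Sham in sums and 3 of them at least 2-fold, where 61.3% of all measured genes were higher and 5.35% at least 2-fold, and 13 were higher with equal weight and 14 without the deep cells. Counts with equal weight or without deep cells have no share of all measured genes beside them.

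Surface and homing receptors differed from gene to gene. Cd63, a granule membrane protein, stood at 1010 CPM in MI-E, 1194 CPM in MI and 2041 CPM in Sham, and at 1562, 1738 and 2182 CPM with equal weight. Itga2b, the integrin chain CD41, stood at 436, 438 and 421 CPM in MI-E, MI and Sham in sums and at 777, 802 and 499 CPM with equal weight. Cxcr4, the receptor that holds cells in marrow, stood at 254, 252 and 258 CPM in sums and at 406, 409 and 267 CPM with equal weight. For both genes the sums were level and the cell means were higher in the infarct libraries. Ccr2, a receptor for leaving marrow, stood at 286 CPM in MI-E, 220 CPM in MI and 147 CPM in Sham, with MI-E at 1.95 times the Sham level (1.63 to 2.34). Ccr2 is also 1 of 10 monocyte markers, of which 6 of 9 measured were higher in MI-E and 4 of 8 in MI than in Sham. Over all measured genes 61.3% and 56.1% were higher. The monocyte medians of the log2 ratio were 0.68 for MI-E and 0.27 for MI over Sham in sums. Without cells above 10000 UMIs they were 0.68 and -0.01, and the part of monocyte transcripts in the Ccr2 level was not tested. Without the cells that held primary granule transcripts the monocyte median for MI-E over Sham was -0.54. Kit or Cd34, surface markers of progenitors, were found at equal depth in 18.3% of the cells of MI-E, 10.2% of MI and 8.9% of Sham. Cells with Cd79a, a B lineage marker, gave 3.6%, 4.72% and 2.43%. Without thinning the basophil cells gave 23.5%, 16.7% and 16.5%. At equal depth the MI-E share was 2.05 times the Sham share (1.12 to 3.92) and 1.79 times the MI share (1.02 to 3.18). Without thinning these ratios were 1.42 (0.924 to 2.22) and 1.41 (0.942 to 2.11), both within counting error.

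The chemokine genes that basophils make split by member. Ccl4 stood at 322 CPM in MI-E, 478 CPM in MI and 1169 CPM in Sham, with MI-E at 0.276 times the Sham level (0.248 to 0.307) and MI at 0.409 times (0.374 to 0.447). With equal weight the levels were 787, 978 and 2144 CPM, so the order held. In the other marrow cells Ccl4 had ratios to Sham of 0.3 for MI-E and 0.308 for MI. Ccl3 stood at 923 CPM in MI-E, 1216 CPM in MI and 1767 CPM in Sham, with MI-E at 0.759 times the MI level (0.707 to 0.815). Ccl9, a myeloid chemokine, was higher in the infarct libraries, with 533 CPM in MI-E, 546 CPM in MI and 386 CPM in Sham. Its ratios to Sham were 1.38 (1.23 to 1.55) for MI-E and 1.42 (1.26 to 1.59) for MI, against 1.12 and 0.845 in the other marrow cells. Ccl3 and Ccl4 were thus lower, and Ccl9 higher, in the infarct libraries than in Sham, in sums and with equal weight. With cells above 10000 UMIs left out, the ratio of MI to Sham was 0.937 for Ccl3.

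Cytokines and mediator enzymes were mostly lower in sums in the infarct libraries than in Sham, but not with equal weight. Hdc, histidine decarboxylase, which makes histamine, stood at 396 CPM in MI-E, 570 CPM in MI and 553 CPM in Sham, with MI-E at 0.696 times the MI level (0.625 to 0.774). With equal weight it stood at 718, 1083 and 803 CPM. Hdc was therefore lower in MI-E than in MI with either weighting, while in the other cells of the marrow that ratio was 1.01. Il4, the cytokine of type 2 immunity, was sparse, with 63 UMIs in MI-E, 83 in MI and 84 in Sham. It was detected in 22.3% of the cells of MI-E, 23.2% of MI and 32.1% of Sham, beside 0.355%, 0.311% and 0.427% of the other kept cells. Csf1, the macrophage growth factor, stood at 148 CPM in MI-E, 173 CPM in MI and 253 CPM in Sham in sums, and at 258, 323 and 360 CPM with equal weight. Alox5, the enzyme that starts leukotriene synthesis, stood at 291, 247 and 433 CPM in sums and at 508, 417 and 443 CPM with equal weight. Of 18 measured mediator genes 12 were lower in MI than in Sham in sums, where 43.9% of all measured genes were lower, with a median log2 ratio of -0.24, but 8 were lower with equal weight, with a median of 0.12. For MI-E over Sham the medians were -0.48 in sums and 0.01 with equal weight. No share of all measured genes was taken with equal weight.

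**Figure D5:**
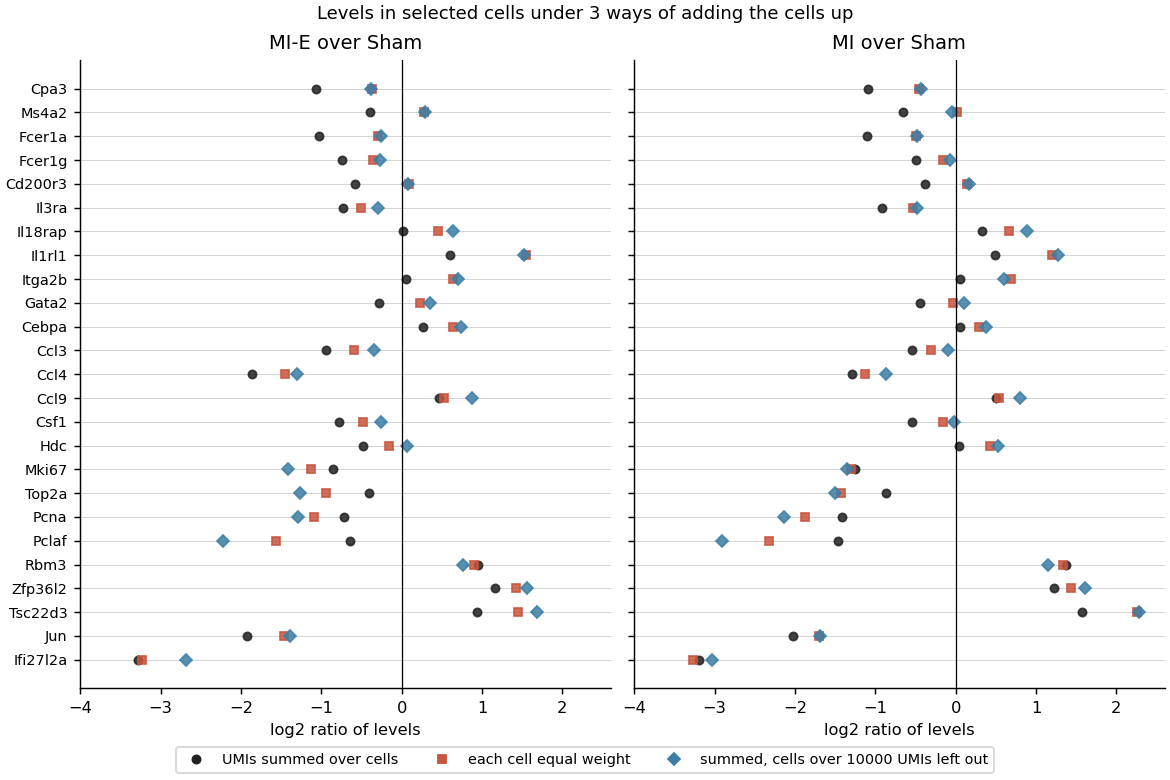
Log2 ratio of levels (CPM) of named genes in the basophil cells, for MI-E over Sham and MI over Sham; circles are sums over cells, squares give each cell equal weight, and diamonds are sums without cells over 10000 UMIs. Il1rl1 lies right of 0 and Cpa3, Fcer1a and Ccl4 left of 0 in all 3 versions of both comparisons, while Ms4a2 in MI-E over Sham changes side.

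Transcription factors of the lineage differed from gene to gene. Gata2 stood at 1153 CPM in MI-E, 1023 CPM in MI and 1396 CPM in Sham in sums, and at 2177, 1824 and 1862 CPM with equal weight. Cebpa, which encodes C/EBPα, stood at 535 CPM in MI-E, 421 CPM in MI and 345 CPM in Sham with equal weight, and its summed MI-E level was 1.2 times the Sham level (1.03 to 1.39). Gata2 thus changed order with the weighting and Cebpa was highest in MI-E with both. Stat5a, a transducer of interleukin 3 signals, stood at 50.1 CPM in MI-E, 31.4 CPM in MI and 23.7 CPM in Sham, from 71, 50 and 28 UMIs. MI-E was at 2.11 times the Sham level for Stat5a (1.34 to 3.4). Myb, a factor of progenitors, stood at 292 CPM in MI-E, 268 CPM in MI and 169 CPM in Sham in sums, and at 198, 139 and 133 CPM with equal weight, while without cells above 10000 UMIs it stood at 191, 122 and 143 CPM. Runx1 stood at 287, 283 and 437 CPM in sums and at 426, 435 and 474 CPM with equal weight. Cebpb stood at 277, 280 and 416 CPM in sums and at 317, 312 and 437 CPM with equal weight. Runx1 and Cebpb were thus lower, and Myb higher, in both infarct libraries with either weighting. Of 25 measured factors, 15 were higher in MI-E than in Sham in sums, 2 of them at least 2-fold, and 21 with equal weight, where 61.3% of all measured genes were higher in sums and 5.35% at least 2-fold. In MI, 12 of 25 were higher than in Sham in sums, where 56.1% of all measured genes were, and 17 with equal weight. The equal-weight counts have no such share of all measured genes to be set against. Their median log2 ratio to Sham was 0.26 in MI-E and -0.00 in MI, or 0.42 and 0.27 without the deep cells.

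Genes that glucocorticoids induce were higher in the infarct libraries in most measured members. In MI, 9 of 12 were higher than in Sham and 4 of them at least 2-fold, where 56.1% of all measured genes were higher and 4.02% at least 2-fold, with a median log2 ratio of 0.43, or 0.55 with equal weight, 0.61 without cells above 10000 UMIs and 0.02 in the other marrow cells. In MI-E, 10 of 13 were higher than in Sham, 2 of them at least 2-fold. Over all measured genes 61.3% were higher and 5.35% at least 2-fold. The list median for MI-E was 0.41, or 0.70 with equal weight, 0.75 without the deep cells and 0.13 in the other marrow cells. Zfp36l2, an RNA-binding regulator, stood at 482 CPM in MI-E, 503 CPM in MI and 214 CPM in Sham. Txnip, a regulator of glucose uptake and redox state, stood at 393, 492 and 323 CPM. Tsc22d3, which encodes GILZ, was chosen after its values were seen and stood at 63.5 CPM in MI-E, 98.6 CPM in MI and 33.1 CPM in Sham. Its MI level was 2.98 times the Sham level (2.09 to 4.35), or 4.77 times with equal weight. In the other marrow cells the ratio of MI to Sham was 1.56 for Tsc22d3, 0.943 for Zfp36l2 and 0.996 for Txnip. Dusp1, a further gene chosen after its values were seen, went the other way with 54.3, 46.5 and 148 CPM in MI-E, MI and Sham. It is both glucocorticoid-induced and an immediate early gene.

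Most genes of a list of immediate early and stress genes were lower in the infarct libraries, while its most abundant heat shock genes were higher in sums. In MI, 17 of 21 measured genes were lower than in Sham, 7 of them at least 2-fold, where 43.9% of all measured genes were lower and 3.02% at least 2-fold, with a median log2 ratio of -0.63, or -0.41 without cells above 10000 UMIs, against -0.27 in the other marrow cells. In MI-E, 15 of 22 were lower than in Sham, 3 of them at least 2-fold, where 38.7% and 2.05% of all measured genes were, with a median of -0.40, but without the deep cells this median was -0.01. Jun, a subunit of the AP-1 factor chosen after its values were seen, stood at 152 CPM in MI-E, 142 CPM in MI and 576 CPM in Sham. In the other marrow cells the ratio of MI to Sham for Jun was 0.319, beside 0.247 in the basophil cells. Hsp90ab1, a heat shock chaperone, stood at 1722 CPM in MI-E, 1663 CPM in MI and 899 CPM in Sham, and at 928, 872 and 689 CPM with equal weight. Hspa8 stood at 1075, 1036 and 703 CPM in sums and at 846, 772 and 649 CPM with equal weight. Hsp90aa1 stood at 720, 582 and 425 CPM in sums, but at 226, 224 and 372 CPM without cells above 10000 UMIs, so its direction turned. The list summed to 5875 CPM in MI-E, 5486 CPM in MI and 5775 CPM in Sham. These genes also respond to the handling of cells, and the part of handling was not tested.

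Interferon-induced genes were lower in the infarct libraries, as in the rest of the marrow. Of 18 measured genes 16 were lower in MI than in Sham, where 43.9% of all measured genes were, with a median log2 ratio of -0.50, against -0.90 in the other cells. Of 19 genes 17 were lower in MI-E than in Sham, where 38.7% of all measured genes were, with a median of -0.61, against -0.92 in the other cells. Without cells above 10000 UMIs the medians were -0.19 for MI-E and -0.41 for MI over Sham. Ifi27l2a stood at 32.5 CPM in MI-E, 34.5 CPM in MI and 315 CPM in Sham, and the ratio of MI to Sham was 0.11 (0.081 to 0.146) in the basophil cells and 0.115 in the others. Rsad2, the antiviral protein viperin, had 3 UMIs in MI-E, 3 in MI and 57 in Sham. Rbm3, an RNA-binding protein induced by cold, was higher, with 890 CPM in MI-E, 1185 CPM in MI and 459 CPM in Sham. Its ratio of MI to Sham was 2.58 (2.34 to 2.84), against 2.35 in the other cells.

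Across all genes, many of the leading differences from Sham were in transcripts of other blood cells. Of 5868 measured genes, 236 were at least 2-fold higher and 177 at least 2-fold lower in MI than in Sham. Of 5959 measured genes, 319 were at least 2-fold higher and 122 at least 2-fold lower in MI-E than in Sham. The balance depended on the scaling. With median-of-ratios scaling the split was 183 to 226 for MI and 206 to 196 for MI-E over Sham, and it shifted the log2 ratios by -0.09 and -0.16. Ranked by the interval bound nearest 1, the 8 leading genes higher in MI than in Sham included Plppr3, Dnph1, Mt1, Prtn3, Snhg9, Snhg3 and Elane. Elane, neutrophil elastase, stood at 1190 CPM in MI and 326 CPM in Sham, and at 290 and 118 CPM with equal weight. Dnph1 stood at 37.7 CPM in MI and 2.54 CPM in Sham, and at 3.28 and 3.36 CPM without cells above 10000 UMIs. The 2 noncoding host genes Snhg3 and Snhg9 stayed higher without those cells, with MI at 2.85 and 3.63 times the Sham level. The 8 leading lower genes were Cma1, from 1 Sham cell, 4 globin genes, Rsad2, and the red cell genes Slc4a1 and Tmcc2. Hbb-bs, a beta globin, stood at 1403 CPM in MI and 11944 CPM in Sham. At least 1% haemoglobin was present in 3 cells of MI-E, 6 of MI and 18 of Sham.

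The number of genes that differed 2-fold between MI-E and MI depended on the weighting of cells. Of 6083 measured genes, 38 were at least 2-fold higher in MI-E and 17, or 0.279%, at least 2-fold lower. With median-of-ratios scaling the split was 30 to 23, and with protease, haemoglobin, mitochondrial and ribosomal genes left out of the total it was 64 to 46. With equal weight it was 127 to 49, without cells above 10000 UMIs 125 to 42, and after thinning to 2000 UMIs 98 to 75. The leading lower gene was Ifitm1, a small membrane protein of progenitors, at 757 CPM in MI-E, 2348 CPM in MI and 1283 CPM in Sham. Its MI-E level was 0.323 times the MI level (0.301 to 0.345), 0.282 times with equal weight and 0.552 times in the other marrow cells. Ifitm1 was detected in 71.8% of the cells of MI-E, 86.3% of MI and 71.9% of Sham, and no single cell gave more than 65 of its UMIs. Prss28, a serine protease, stood at 28.9 CPM in MI-E, 68.5 CPM in MI and 54.2 CPM in Sham. Slc26a3, an anion exchanger, stood at 12, 32.7 and 8.48 CPM, from 17, 52 and 10 UMIs. Both were lower in MI-E than in MI with equal weight too.

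Several of the genes higher in MI-E than in MI were also higher in the other marrow cells. Hist1h2ap, a replication-dependent histone, stood at 626 CPM in MI-E, 174 CPM in MI and 380 CPM in Sham, with MI-E at 3.6 times the MI level (3.14 to 4.13) and at 3.11 times in the other cells. H1f0, a linker histone, stood at 166, 69.1 and 149 CPM, with MI-E at 2.41 times the MI level (1.91 to 3.05) and at 2.46 times in the other cells. Scd2, a fatty acid desaturase, stood at 119, 32.7 and 31.4 CPM, with MI-E at 3.65 times the MI level (2.66 to 5.08) and at 2.64 times in the other cells. Dck, the deoxycytidine kinase that salvages DNA precursors, had 54 UMIs in MI-E, 14 in MI and 38 in Sham. Its MI-E level was 4.33 times the MI level (2.37 to 8.45) in the basophil cells and 1.57 times in the others. Hist1h2ap, H1f0 and Dck were lowest in MI, and Scd2 was level in MI and Sham. Dennd5b and Fry, also among the 8 leading lower genes, drew many of their UMIs from a single cell, which held 40 of 219 and 49 of 78 UMIs in MI.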

How the data were processed

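Cells of 3 bone marrow libraries (MI-E, MI and Sham, 1 each) were analysed from the deposited tables of UMI counts per gene and cell, 32285 genes in each. The submitters' processing notes name Cell Ranger 5.0.1 and mm10, and no annotation release was found in them. The deposited counts were used as they stand. Cells were kept with 500 or more UMIs, 300 or more genes and no more than 10% of UMIs from mitochondrial genes. The 3 libraries held 22857, 23810 and 25721 barcodes in the order MI-E, MI and Sham, and 351, 355 and 668 were removed by this filter. Median depth of the kept cells was 2911, 3451 and 2572 UMIs. Libraries shared 156 to 176 barcodes per pair, and 4, 5 and 2 of the selected cells of MI-E, MI and Sham had a barcode also present in another library, none of them selected in both. Kept cells with at least 4 UMIs of Mcpt8 plus Prss34 were 304, 372 and 324 in number. Cd79a removed 41, 37 and 86 of them, and among those left the S100 limit then removed 25, 42 and 14.

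The selection rule, markers and gene lists were chosen with earlier results of these data known, so counts over lists are descriptions. UMIs were summed over the selected cells of a library and scaled to a total of 1000000 (CPM). Ratios have exact conditional binomial intervals, shares exact Clopper-Pearson intervals and levels exact Poisson intervals, all 95% and for counting error only, because no replicate exists. A gene was measured in a comparison at a mean of at least 20 CPM and at least 30 UMIs over both libraries. The genes of the rule, mitochondrial, ribosomal protein and antigen receptor genes were left out of gene counts. Shares of all measured genes that were higher or lower by any amount were taken from sums only. Equal-weight levels are means of CPM per cell. To compare shares of cells at 1 depth, cells were thinned to 2000 UMIs (seed 1). B lineage cells for background had at least 2 UMIs of Cd79a.

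Named genes were the first 8 higher and lower (5 for MI-E over Sham), ranked by the interval bound nearest 1, after removal of model genes and of genes that were below 0.5 times the level of all kept cells in both libraries; the 5 markers; members of the 6 basophil lists; and up to 4 members with the largest mean CPM of other lists. A gene that the rule names is not reported here. Genes outside this rule are marked as chosen after their values were seen. Doublets were kept. A caller based on simulated doublets marked 13% of kept cells in MI-E, 13% in MI and 15.4% in Sham, and 44, 32 and 34 of the selected cells; leaving them out was an alternative. Other alternatives were stricter cell and marker rules, scalings, level minimum, and leaving out cells with at least 3 UMIs of Elane, Mpo, Prtn3 and Ctsg. Leaving out cells above 10000 UMIs or rich in haemoglobin was chosen after seeing the data. Scripts were tested on simulated data. The software was scanpy 1.11.5, scipy 1.17.1, numpy 2.4.6 and pandas 2.3.3 under Python 3.11.15.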

Additional observations from a re-analysis of the deposited data

How the results depend on the processing

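No paired analysis was possible because each group has 1 library. The same lack limits every value: intervals cover counting error, and differences between mice, preparations and sequencing runs cannot be told apart from the groups. Of 27 values of the share ratios under alternatives, 25 moved by less than their interval. With cells rich in S100a8 and S100a9 out of the denominator, the share was 2.01 times the Sham share in MI and 1.45 times in MI-E. Of 78 counts of genes past 2-fold, 48 stayed within 1.5 times the value in the report. Of 832 list medians 76 moved and 6 reversed, and of 3786 values of named genes 1052 moved and 26, each past 2-fold in the report, reversed. An alternative gave no value for a gene with under 10 UMIs over both libraries. Depth limits sparse genes such as Il4 and Slc26a3.

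Without the cells that held at least 3 UMIs of Elane, Mpo, Prtn3 and Ctsg, which were most cells of each library, fewer genes reached the level minimum (2514 to 2974). Genes at least 2-fold higher and lower then numbered 136 and 77 for MI over Sham, 162 and 75 for MI-E over Sham, and 77 and 64 for MI-E over MI. At a level minimum of 50 CPM, which tests fewer genes, they numbered 61 and 82, 98 and 43, and 11 and 3 in the same comparisons. Median-of-ratios scaling gave 206 and 196 for MI-E over Sham. Thinning to 2000 UMIs gave 194 higher for MI-E over Sham, and 98 higher and 75 lower for MI-E over MI. With protease, haemoglobin, mitochondrial and ribosomal genes out of the total, which lifts other genes over the level minimum, 360 were higher for MI over Sham, and 64 higher and 46 lower for MI-E over MI. Without cells above 10000 UMIs, chosen after seeing the data, 231 were lower for MI-E over Sham, and 125 higher and 42 lower for MI-E over MI. For MI-E over MI, a minimum of 10 selection UMIs gave 74 higher and 36 lower, leaving out marked doublets 63 and 43, equal weight of cells 127 and 49, and the requirement of another marker 62 higher. The cause of these shifts was not tested where the number of genes tested stayed alike.

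Directions that reversed are given as log2 ratios, and their cause was not tested. Without cells with primary granule transcripts the granule list median was 0.22 and the monocyte list -0.54 for MI-E over Sham, and the mast list 0.01 for MI and 0.03 for MI-E over Sham. With at least 10 selection UMIs the mast list was 0.02 for MI and 0.19 for MI-E over Sham. Without cells with primary granule transcripts Cpa3 was 0.17 for MI and 0.77 for MI-E over Sham, and Fcer1a 0.20, Elane -0.09, Mt1 -0.21 and Snhg9 -0.21 for MI-E over Sham. Cd34 for MI over Sham was -0.46 after thinning and -0.11 without cells above 10000 UMIs. Ngp for MI-E over MI was -0.18 with another marker required and -0.76 without marked doublets, and Prg2 was -2.62 without marked doublets, from 0 UMIs in MI-E set to a floor of 3 counts and 24 in MI. Without cells above 10000 UMIs, Noa1 was -0.36 for MI-E over Sham, and Tom1 was -0.13 for MI-E over Sham after thinning. Dennd5b was -0.53 for MI over Sham and 0.64 for MI-E over MI without cells with primary granule transcripts, and for MI-E over MI 0.22 after thinning and 0.57 without cells above 10000 UMIs. Fry for MI over Sham was -0.13 with at least 10 selection UMIs, -0.24 with another marker required, -0.40 without cells with primary granule transcripts, -0.24 after thinning and -0.15 without its top cell. Fry for MI-E over MI was 0.02 with another marker required, 0.51 without cells with primary granule transcripts, 0.24 with equal weight and 0.43 without cells above 10000 UMIs.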
